A study of Rattus norvegicus with 16 samples.

Results

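The AP-1 transcription factor genes comprise the Fos family (Fos, Fosb, Fosl1 and Fosl2) and the Jun family (Jun, Junb and Jund). They were taken by symbol from the platform annotation of the arrays, with the brightest probe of each, and account for 7 of the 15037 genes measured. Each had 1 probe set, so no choice between probes was needed. The study used 16 Affymetrix arrays, with 4 treatments crossed with 4 brain regions of male Wistar rats aged 8 to 10 weeks and 1 array per combination. The regions came from the habenula, with its lateral (LHb) and medial (MHb) parts, and from the hindbrain, with the medial vestibular nucleus (MVe) and the solitary nucleus (Sol). All were laser microdissected from unfixed frozen brain stained with the Nissl method. Rats in the sevoflurane group inhaled 2.4% sevoflurane for 1 hour, and rats in the O2 group received oxygen without anesthetic. Rats in the propofol group received a 10 mg/kg intravenous bolus followed by 36 mg/kg/hr, and rats in the Intralipos group received a lipid emulsion (10% lipid), the vehicle, at the same stated rates. All groups breathed 40% oxygen at 6 L/min, and the labels give a time of 60 minutes for every array of the 4 treatments. The labels give neither the number of rats behind an array nor which regions came from the same rat.

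AP-1 is a dimer of basic leucine zipper proteins that binds a short DNA element and activates or represses transcription. Fos proteins need a Jun partner to bind DNA, whereas Jun proteins can also pair with each other. In neurons, calcium entry and growth factor signals switch on several of these genes within minutes without new protein synthesis, and Fos is widely used to mark recently active cells. The comparisons below ask whether the AP-1 genes differed between each anesthetic and its own control, and in which regions.

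The promoters of the Jun-family genes Junb and Jund are shown because, among the 7 genes after sevoflurane, Junb had the smallest p and Jund the smallest fitted difference. RefSeq (build GRCr8) gave a window from 250 bases before to 50 bases after the gene start for 5 of the 7 genes: Fosb, Fosl1, Fosl2, Junb and Jund. Capitals mark matches, on either strand, to the cAMP response element TGACGTCA (CRE), its partial site TGACG, the AP-1 site (TGACTCA or TGAGTCA), the CArG box bound by serum response factor, and a TATA box (TATAAA or TATATA). The Junb window lies at chr19:40080876-40081175 on the plus strand, and the Jund window at chr16:18769722-18770021 on the minus strand, each written 5′ to 3′.
Junb: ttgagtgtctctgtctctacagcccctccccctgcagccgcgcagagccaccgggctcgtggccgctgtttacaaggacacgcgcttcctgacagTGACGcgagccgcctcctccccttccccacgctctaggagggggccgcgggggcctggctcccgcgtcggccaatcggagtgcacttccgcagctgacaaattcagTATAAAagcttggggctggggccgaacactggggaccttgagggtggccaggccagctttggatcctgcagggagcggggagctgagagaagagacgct
Jund: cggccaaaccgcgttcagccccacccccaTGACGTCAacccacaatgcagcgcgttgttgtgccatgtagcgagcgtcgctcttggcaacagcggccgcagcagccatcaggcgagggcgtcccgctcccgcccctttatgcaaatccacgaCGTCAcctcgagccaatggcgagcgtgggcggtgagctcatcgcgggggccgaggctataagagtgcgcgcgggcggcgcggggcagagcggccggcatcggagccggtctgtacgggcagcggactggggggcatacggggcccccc
The Junb window held a partial CRE with its first base 155 bases before the start and a TATA box at 49 bases before it. The Jund window held a full CRE at 221 bases before the start, with partial sites at 221 and 218 inside it, and a separate partial site at 98. Among 33469 RefSeq windows of the same length, 1.83% held the full CRE, 21.2% the partial site, 4.63% the AP-1 site, 1.64% the CArG box and 17.8% a TATA box. The Fosl1 window held partial CREs at 148 and 84 bases before the start, and the Fosb window held TATA matches at 180 and 172. The Fosl2 window held none of these letters. GC content was 65.3% in the Junb window and 69.7% in the Jund window.

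The deposited values are read as log2 signals, so a difference of 1 is a 2-fold difference. The mean over all probes was 7.20 to 7.21 on the sevoflurane and O2 arrays and 6.97 to 6.99 on the propofol and Intralipos arrays. Levels are therefore compared only within those sets, and across them treatment and array set cannot be told apart. The O2 array of MVe had the narrowest spread over genes, with an interquartile range of 5.14 against 5.30 to 5.55 on the other arrays, and the fitted sevoflurane differences of the larger responders are also given without it. Medial habenula markers were highest in MHb for 10 of 10 genes, solitary nucleus markers in Sol for 10 of 11 and vestibular markers in MVe for 6 of 10. The lateral habenula list did not single out LHb: 1 of 7 genes (Htr2c) was highest there, and the habenular gene Gpr151 averaged 14.04 (LHb), 16.30 (MHb), 4.94 (Sol) and 5.01 (MVe). Fosl1 and Fosl2 were dim, with means above only 51.8% and 35.6% of the 1153 probe sets named as negative controls. Fosb and Junb lay above 80.4% and 79.9% of them, Jun above 91.2%, Fos above 95.8% and Jund above 98.7%. On the O2 arrays the shares were lower, at 50.6% to 67.6% for Junb and 56.4% to 78.1% for Fosb, and Jun lay above 46.5% in MHb and 54.5% in MVe. Fos lay above 83.0% in MHb, 85.3% in Sol and 83.3% in MVe there. On the Intralipos arrays the shares were 52.6% to 70.9% for Junb and 68.3% to 83.1% for Fosb. Fos lay above 76.3% in MHb, 89.9% in Sol and 91.0% in MVe on the Intralipos arrays. Differences and folds from these control arrays are set against a signal within the range of the negative controls, and the files give no detection call.

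After sevoflurane, AP-1 genes stood above O2 in 22 of 28 gene and region comparisons. The difference reached 2-fold in 14 of the 28, against 0.539% (LHb), 0.825% (MHb), 0.705% (Sol) and 1.97% (MVe) of all genes. By region, 1 of the 7 genes reached 2-fold in LHb (Junb), 4 in MHb (Fos, Fosb, Jun and Junb), 3 in Sol (Fos, Fosl2 and Junb) and 6 in MVe (all but Jund). No AP-1 gene was at least 2-fold lower in any region, against 0.492% (LHb), 0.658% (MHb), 0.672% (Sol) and 1.64% (MVe) of all genes. Without MVe the count was 8 of 21. These are differences of 1 array from 1 array, with no replicate check and no test. In dissected tissue, fewer cells of a type and less RNA per cell cannot be told apart.

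Fos encodes c-Fos, the best known early response protein of neurons. Its log2 signal after sevoflurane was 10.09 (LHb), 9.69 (MHb), 9.10 (Sol) and 11.63 (MVe), against 10.13, 6.89, 6.63 and 7.16 on the O2 arrays of those regions. The groups overlapped only through LHb, where the O2 array was as high as the sevoflurane array. The differences were 2.79 in MHb, 2.47 in Sol and 4.47 in MVe, which correspond to 6.93-fold, 5.54-fold and 22.2-fold, and -0.04 in LHb. The O2 signals of MHb, Sol and MVe lay above 83.0%, 85.3% and 83.3% of the negative controls, against 97.1% in LHb. The folds in MHb, Sol and MVe are therefore set against a signal within the range of the negative controls. Among all genes ordered from the largest increase, Fos ranked 2 in MHb and 3 in both Sol and MVe, but 8360 in LHb.

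Fosb encodes FosB and its truncated, long-lived form ΔFosB, which accumulates when neurons are stimulated repeatedly. Its signal was 6.54 (LHb), 6.78 (MHb), 6.61 (Sol) and 7.11 (MVe) after sevoflurane, against 6.43, 5.44, 5.66 and 5.28 after O2. Every sevoflurane array lay above every O2 array, and the O2 array of LHb was again the highest control. The share of all genes without such overlap was not counted. The differences were 0.11 (LHb), 1.34 (MHb), 0.95 (Sol) and 1.82 (MVe). The sevoflurane signals of Fosb lay above 80.7% to 86.6% of the negative controls, so both sides of these differences were dim. Fosl1 and Fosl2 encode Fra-1 and Fra-2, Fos relatives that lack the strong activation domain of c-Fos. Fosl2 stood at 5.38, 4.74, 5.86 and 5.15 in LHb, MHb, Sol and MVe after sevoflurane, against 4.95, 4.38, 4.70 and 4.06 after O2. It was higher in each region, by 0.42 (LHb), 0.36 (MHb), 1.17 (Sol) and 1.09 (MVe), although the groups overlapped. Fosl1 stood at 4.76, 5.05, 5.35 and 5.92 after sevoflurane, against 5.06, 4.94, 5.57 and 4.74 after O2. Its differences had mixed signs, and the one of 1.17 in MVe was the largest.

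**Figure D1:**
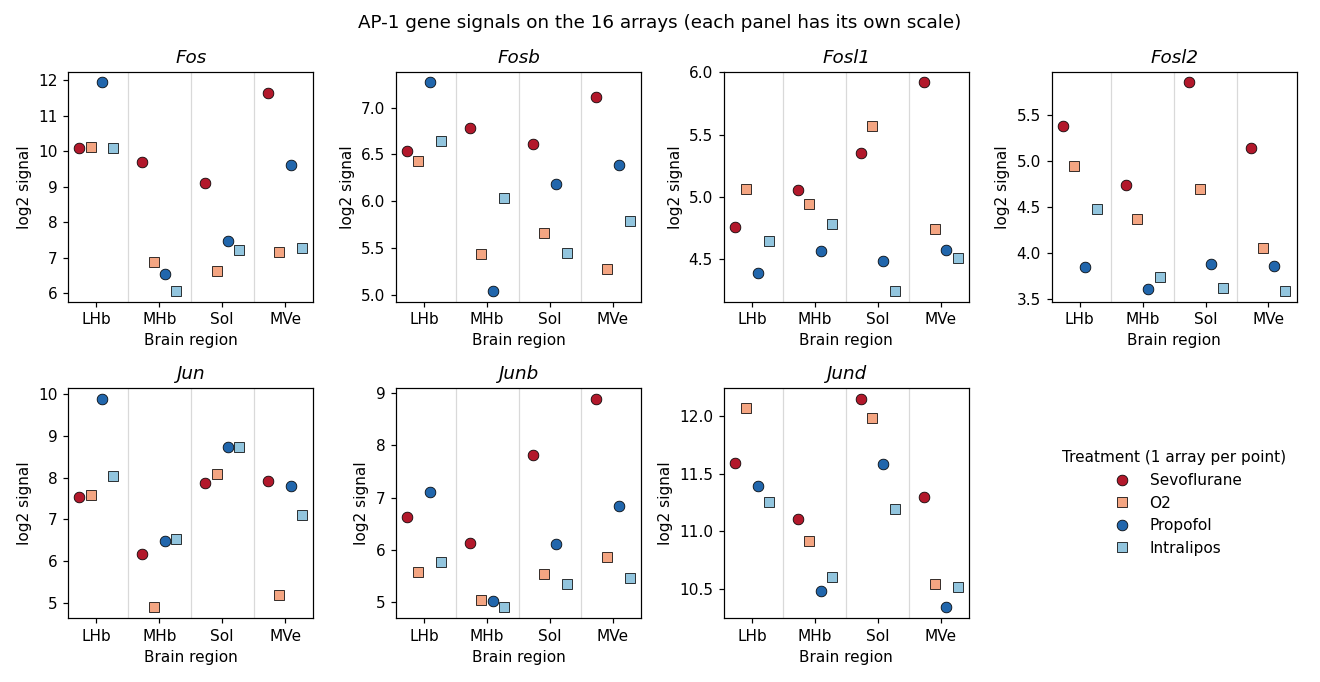
Log2 signal (vertical axis, a separate scale in each panel) of the 7 AP-1 genes by brain region (horizontal axis), with 1 point per array and colours for sevoflurane, O2, propofol and Intralipos. Fos is near 10.1 in LHb on both the sevoflurane and O2 arrays and on the Intralipos array, and the sevoflurane points of Junb lie above all its O2 points.

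Junb encodes JunB, a Jun protein that activates transcription weakly on its own and can oppose c-Jun. Its signal was 6.62 (LHb), 6.14 (MHb), 7.82 (Sol) and 8.89 (MVe) after sevoflurane, against 5.58, 5.04, 5.54 and 5.87 after O2. The groups did not overlap, and Junb alone among the 7 genes was at least 2-fold higher in all 4 regions. The share of all genes without overlap, or at least 2-fold higher in all 4 regions, was not counted. Its differences were 1.03 (LHb), 1.10 (MHb), 2.28 (Sol) and 3.02 (MVe), or 2.05-fold, 2.15-fold, 4.87-fold and 8.11-fold. It ranked 70, 79, 5 and 7 among 15037 genes in the same regions. Over the regions, its levels spanned 2.75 after sevoflurane and 0.83 after O2. The O2 signals lay within the range of the negative controls, so these differences, folds and ranks are only as firm as that dim control. The sevoflurane signals of LHb and MHb were dim as well, above 81.9% and 73.3% of the negative controls, so the folds there compare 2 dim signals.

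Jun encodes c-Jun, the usual partner of c-Fos, whose activity is raised by phosphorylation through the JNK kinases. Its signal was 7.53 (LHb), 6.16 (MHb), 7.88 (Sol) and 7.93 (MVe) after sevoflurane, against 7.59, 4.89, 8.09 and 5.20 after O2. The O2 arrays split into high values in LHb and Sol and low values in MHb and MVe. Differences of 1.28 (MHb) and 2.73 (MVe) were found where the O2 level was low and near the middle of the negative controls, and -0.07 (LHb) and -0.21 (Sol) where it was high. Jund encodes JunD, which most cells express without stimulation. It stood at 11.59, 11.11, 12.15 and 11.30 after sevoflurane, against 12.07, 10.92, 11.98 and 10.54 after O2, and no region differed by 2-fold. Its differences ran from -0.47 in LHb to 0.77 in MVe.

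**Figure D2:**
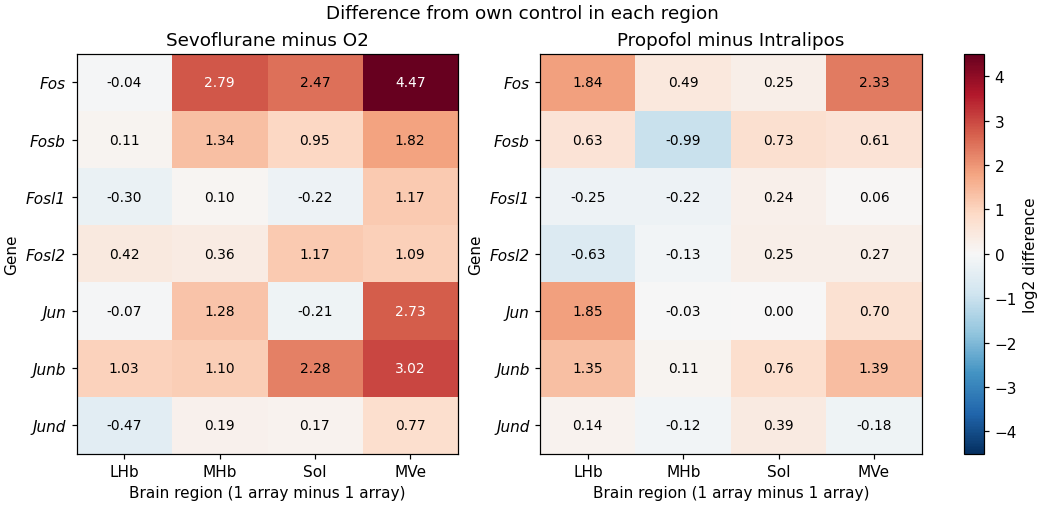
Log2 difference of each AP-1 gene (rows) between an anesthetic array and the control array of the same region (columns), with sevoflurane minus O2 on the left and propofol minus Intralipos on the right. The darkest cells are Fos (4.47) and Junb (3.02) in MVe after sevoflurane, while the LHb column after sevoflurane is near 0 except for Junb.

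The mean difference over the regions, which stand in for replicates, was tested in a model of additive treatment and region effects (limma, 9 residual degrees of freedom). Its p-values measure only the spread between these arrays, and they may be too small if regions shared rats. Errors written with ± are moderated standard errors. For sevoflurane minus O2, 0 of the 7 AP-1 genes and 0 of 15037 genes (0%) passed an adjusted p of 0.05, adjusted over all genes by the Benjamini-Hochberg method. At an unadjusted p under 0.05 there were 751 genes (4.99%), of which 420 were higher (2.79%), and 5 of the 7 AP-1 genes were among the higher ones.

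Junb had a fitted difference of 1.86 ± 0.33 (limma adjusted p = 0.222, higher in 4 of 4 regions), a mean 3.63-fold difference, and ranked 2 among all genes by p. Fos had 2.42 ± 0.58 (0.655, 3 of 4 regions), a 5.36-fold difference. Its regions ran from -0.04 in LHb to 4.47 in MVe. Fosl2 had 0.76 ± 0.20 (0.655) and Fosb 1.06 ± 0.29 (0.742), each in 4 of 4 regions, and Jun had 0.93 ± 0.37 (0.975) in 2 of 4. Fosl1 and Jund, at 0.19 ± 0.22 and 0.16 ± 0.17 (both 0.989), differed by no more than about their standard error. Higher values in 4 of 4 regions were seen for 3 of the 7 genes (Fosb, Fosl2 and Junb), against 7.18% of all genes. The median over the 7 genes was 0.93, with 7 of 7 above 0, against a median of 0.01 and 52.8% above 0 over all genes.

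The call depended on single arrays and on the variance model. Without the sevoflurane array of LHb, Fos (3.31) and Junb (2.26) each had a limma adjusted p of 0.00562, and 8 genes passed in all. Without the O2 array of LHb, neither passed, at 2.63 for Fos and 1.83 for Junb (adjusted p = 0.727 for each). Without the O2 array of MVe, the differences were 2.04 for Fos, 1.74 for Junb, 0.88 for Fosb, 0.65 for Fosl2 and 0.56 for Jun (adjusted p = 0.999 for each). With limma's trended and robust variance, Junb alone of the 7 passed (1.86, adjusted p = 0.029).

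All 7 AP-1 genes had smaller mean sevoflurane differences over the habenula (LHb and MHb) than over the hindbrain (Sol and MVe). The share of all genes with that sign was not counted. Single regions did not all follow this order. The MHb difference exceeded that of Sol for Fos (2.79 against 2.47), Fosb (1.34, 0.95), Fosl1 (0.10, -0.22), Jun (1.28, -0.21) and Jund (0.19, 0.17). It was below that of Sol for Fosl2 (0.36, 1.17) and Junb (1.10, 2.28). The fitted contrast, habenula minus hindbrain, was -1.58 ± 0.48 for Junb (limma adjusted p = 0.866, unadjusted 0.00518), -2.09 ± 1.16 for Fos (0.942) and -0.74 ± 0.32 for Fosl2 (0.927). It was -0.66 ± 0.57 for Fosb, -0.66 ± 0.78 for Jun, -0.61 ± 0.33 for Jund and -0.58 ± 0.39 for Fosl1. None of the 7 passed, nor did any other gene (0%), whereas 803 genes (5.34%) had an unadjusted p under 0.05. Without the sevoflurane array of MHb the Fos contrast was -4.00, and without that of LHb it was -0.19. The sign turned without single arrays for Fosb (up to 0.10 without the sevoflurane array of LHb) and Jun (0.37 without the O2 array of MVe).

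Within the hindbrain alone, a comparison added after the data were seen, Junb rose by 2.65 ± 0.34 after sevoflurane relative to O2 (limma adjusted p = 0.0146). It was 1 of 2 genes past the test (0.0133%), with 973 genes (6.47%) at an unadjusted p under 0.05. The other was Apold1, an endothelial early response gene, which rose by 3.19 ± 0.35 (0.0057). The Junb call did not survive leaving out the O2 array of MVe (2.50, adjusted p = 0.379), the sevoflurane array of MVe (2.31, 0.344) or the O2 array of Sol (2.80, 0.0754). Fos (3.47 ± 0.82, 0.323), Fosl2 (1.13 ± 0.23, 0.284), Fosb (1.39 ± 0.40, 0.504) and Jun (1.26 ± 0.55, 0.749) were higher but did not pass. Fosl1 and Jund stood at 0.48 ± 0.27 and 0.47 ± 0.23. Without the O2 array of MVe these values were 2.95 for Fos, 1.02 for Fosb, 0.94 for Fosl2, 0.24 for Jun, 0.21 for Jund and -0.09 for Fosl1. The Jun value was 2.29 without the O2 array of Sol. In the habenula, Junb was 1.07 ± 0.34 and Fos 1.38 ± 0.82 higher, each with a limma adjusted p of 1. The Fos value turned to -0.53 without the sevoflurane array of MHb and was 3.28 without that of LHb. In this comparison 0 genes passed (0%, with 685 genes or 4.56% at an unadjusted p under 0.05).

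Cell type markers also differed in the same region pairs, each 1 array minus 1 array without a test. In the fits over the 4 regions, no marker of these lists passed the test. In MVe after sevoflurane, 11 of 13 neuron markers were above O2, with a median difference of 0.28 and mean levels of 15.62 and 15.35. There, 3 of 10 astrocyte markers were above O2 (median -0.18) and 9 of 12 oligodendrocyte markers (0.13). Above O2 in MVe were also 9 of 11 choroid plexus (0.15), 8 of 10 microglia (0.11), 6 of 8 endothelial (0.13) and 5 of 8 blood cell markers (0.07). The median over all genes was 0.04 in MVe, 0.01 in LHb and 0.00 in MHb and Sol, and the share of all genes above 0 in a region was not counted. In Sol, 5 of 13 neuron markers (median -0.12) and 1 of 11 choroid plexus markers (-0.51) were above O2. Oligodendrocyte markers were lower in both parts of the habenula, with 1 of 12 above O2 in each and medians of -0.38 in LHb and -0.57 in MHb. The part of these markers in the AP-1 differences was not tested.

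After propofol, the differences that reached 2-fold were those of Fos, Jun and Junb in LHb and of Fos and Junb in MVe. Of 28 gene and region comparisons with Intralipos, 20 were above 0 and 5 reached 2-fold (17.9%), against 0.865% (LHb), 1.1% (MHb), 1.56% (Sol) and 0.845% (MVe) of all genes. By region, 3 of the 7 genes reached 2-fold in LHb, 2 in MVe, 0 in MHb and 0 in Sol. The counts above 0 were 5 (LHb), 2 (MHb), 7 (Sol) and 6 (MVe), with Jun in Sol at only 0.0018. The share of all genes above 0 in a region was not counted, and their median difference was at most 0.03 in any region. No AP-1 gene was at least 2-fold lower, against 0.698% (LHb), 1.08% (MHb), 0.951% (Sol) and 0.858% (MVe) of all genes. Without MVe the count was 3 of 21.

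After propofol the Fos signals of LHb, MHb, Sol and MVe were 11.94, 6.55, 7.48 and 9.60, against 10.09, 6.06, 7.23 and 7.27 after Intralipos. The propofol array of LHb held the highest Fos signal of its array set, above a control that was itself high. The differences were 1.84 (LHb), 0.49 (MHb), 0.25 (Sol) and 2.33 (MVe), with ranks of 3 in LHb and 3 in MVe among all genes. Jun stood at 9.90, 6.49, 8.74 and 7.81 in LHb, MHb, Sol and MVe after propofol, against 8.05, 6.52, 8.74 and 7.11 after Intralipos. Its difference of 1.85 in LHb ranked 2 among all genes, while MHb (-0.03) and Sol (0.00) were level. After sevoflurane the difference of Jun in LHb was -0.07.

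Junb stood at 7.11, 5.02, 6.11 and 6.84 after propofol, against 5.76, 4.90, 5.35 and 5.46 after Intralipos. It was higher in each region, by 1.35 (LHb), 0.11 (MHb), 0.76 (Sol) and 1.39 (MVe), with overlapping groups. The Intralipos signals of Junb lay above only 52.6% to 70.9% of the negative controls, and those of Fosb above 68.3% to 83.1%. Their propofol differences are only as firm as those dim controls. Fosb stood at 7.27, 5.04, 6.18 and 6.39 after propofol, against 6.64, 6.03, 5.45 and 5.79 after Intralipos. It was 0.61 to 0.73 higher in LHb, Sol and MVe but 0.99 lower in MHb, a difference of -0.99. Fosl1 (4.39 to 4.57 after propofol, 4.24 to 4.78 after Intralipos) and Fosl2 (3.61 to 3.89 after propofol, 3.59 to 4.48 after Intralipos) stayed in narrow, overlapping ranges. Jund ran from 10.34 to 11.58 after propofol and from 10.52 to 11.25 after Intralipos.

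Over the 4 regions, 0 of the 7 AP-1 genes passed the limma test for propofol minus Intralipos, as against 3 of 15037 genes (0.02%). At an unadjusted p under 0.05 there were 1040 genes (6.92%), of which 578 were higher (3.84%), Fos and Junb among them. Fos had a difference of 1.23 ± 0.58 (limma adjusted p = 0.721) and Junb 0.90 ± 0.33 (0.646), each higher in 4 of 4 regions, as were 8.36% of all genes. Jun had 0.63 ± 0.37 (0.795) and Fosb 0.24 ± 0.29 (0.914), each in 3 of 4 regions. Fosl1, Fosl2 and Jund stood at -0.04 ± 0.22, -0.06 ± 0.20 and 0.06 ± 0.17. Without the propofol array of LHb, Fos was 0.75, Junb 0.59 and Jun 0.27 higher (limma adjusted p = 0.849, 0.78 and 0.919). Without the Intralipos array of MVe, they were 0.91, 0.66 and 0.59 higher (0.751, 0.66 and 0.761).

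**Figure D3:**
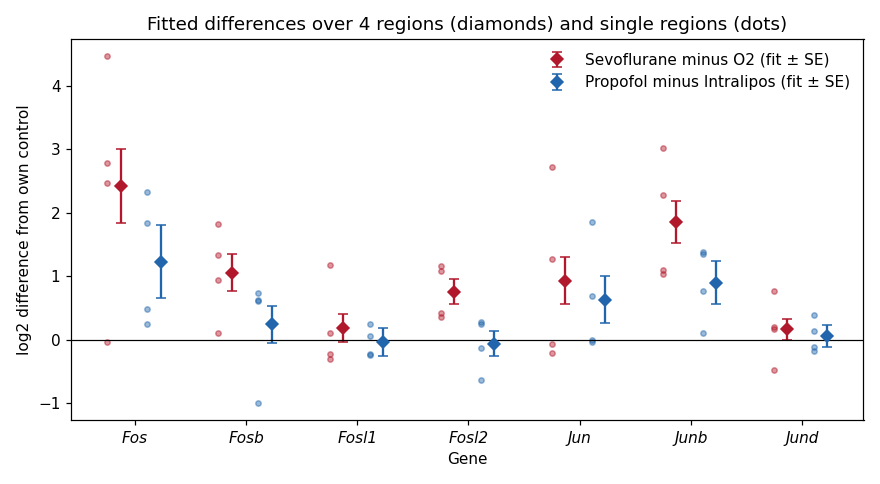
Fitted log2 difference from the control over the 4 regions (diamonds, bars are ± 1 moderated standard error) and the difference in each region (dots) for the 7 AP-1 genes, with sevoflurane minus O2 left of propofol minus Intralipos. Junb after sevoflurane (1.86) has all 4 dots above 1, whereas the dots of Fos (2.42) run from -0.04 to 4.47.

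For propofol, the contrast of habenula minus hindbrain had adjusted p-values of 0.918 to 0.996 over the 7 genes. No gene passed (0%), and 816 genes (5.43%) had an unadjusted p under 0.05. The estimate was 0.56 ± 0.78 for Jun, -0.12 ± 1.16 for Fos, -0.34 ± 0.48 for Junb, -0.85 ± 0.57 for Fosb, -0.64 ± 0.32 for Fosl2, -0.39 ± 0.39 for Fosl1 and -0.09 ± 0.33 for Jund. The larger propofol differences of Fos and Junb fell in 1 nucleus of each division, LHb and MVe.

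In LHb after propofol, 0 of 10 astrocyte markers (median -0.33, mean levels 14.01 after propofol and 14.31 after Intralipos) and 0 of 8 endothelial markers (median -0.26) were above Intralipos. Neuron markers were level there, with 6 of 13 above and a median of 0.00, and 6 of 6 habenula markers were above (median 0.69). In MVe, 11 of 11 choroid plexus markers were higher after propofol, with a median of 0.96 and mean levels of 8.78 and 7.87, and 10 of 13 neuron markers were higher (0.21). In Sol, 10 of 11 choroid plexus markers were higher (median 1.07), while 0 of the 7 AP-1 genes reached 2-fold. The marker differences are again of 1 array from 1 array, and the share of all genes above 0 in a region was not counted. The part of these markers in the AP-1 differences was not tested.

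The sevoflurane effect exceeded the propofol effect for 7 of 7 AP-1 genes, each effect taken against its own control, with a median excess of 0.81, against 49.6% of all genes and a median of 0. Without 1 array the sign turned for Fosl1 (-0.02) and Jun (-0.12), both without the sevoflurane array of MVe, and for Jund (-0.04, without the O2 array of MVe). The test of that difference passed for 0 of the 7 and for 2 of 15037 genes (0.0133%). At an unadjusted p under 0.05 there were 754 genes (5.01%), of which 403 had a larger sevoflurane effect (2.68%), and 1 of the 7, Fosl2, was among these. Its excess was 0.82 ± 0.28 (limma adjusted p = 0.946), in 4 of 4 regions. The excess was 1.19 ± 0.82 for Fos (0.994), 0.96 ± 0.47 for Junb (0.991) and 0.81 ± 0.41 for Fosb (0.991), each in 3 of 4 regions. Without single arrays it ran from 0.67 to 2.08 for Fos, 0.56 to 1.35 for Junb and 0.44 to 1.15 for Fosb. In LHb the order was the other way round for all but Fosl2. There the sevoflurane differences of Fos, Fosb, Fosl1, Jun, Junb and Jund (-0.04, 0.11, -0.30, -0.07, 1.03 and -0.47) lay below their propofol differences (1.84, 0.63, -0.25, 1.85, 1.35 and 0.14). That order in 1 region was not tested.

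In the controls, Fos was much higher in LHb than in the other regions. The O2 array of LHb exceeded the next region by 2.97 and the Intralipos array of LHb by 2.82, so both controls showed it separately. With the 8 control arrays alone, a fit added after the data were seen, Fos was higher in LHb than in MHb by 3.63 ± 0.31 (limma adjusted p = 1.14e-05), where 16.4% of all genes passed. It was higher than in Sol by 3.18 ± 0.31 (5.49e-05; 10.8% of genes) and than in MVe by 2.90 ± 0.31 (9.39e-05; 13.4% of genes). Among MHb, Sol and MVe no pair passed (limma adjusted p = 0.103 to 0.59), although MHb minus MVe was -0.74 ± 0.31 with an unadjusted limma p of 0.036. Fosb shared the highest region, LHb, but not the order below it. It was higher in LHb than in MVe by 1.00 ± 0.26 (0.0242) and than in Sol by 0.98 ± 0.26 (0.0307), but not past the test against MHb (0.80 ± 0.26, 0.0559).

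Jun and Jund shared another order, with LHb and Sol above MHb and MVe. Jun was higher in LHb than in MHb by 2.12 ± 0.34 (limma adjusted p = 0.00119) and than in MVe by 1.66 ± 0.34 (0.00797), and its MHb minus Sol difference was -2.71 ± 0.34 (1.16e-04; 24.9% of genes). It was higher in Sol than in MVe by 2.26 ± 0.34 (8.07e-04; 20.2% of genes). LHb and Sol did not differ past the test (-0.59, 0.35), nor did MHb and MVe (-0.45, 0.385; 28.5% of genes passed). Jund had the same 4 differences at smaller size, with LHb above MHb by 0.90 ± 0.26 (0.0352) and above MVe by 1.13 ± 0.26 (0.0139). Its Sol level exceeded that of MVe by 1.06 ± 0.26 (0.0141), and its MHb minus Sol difference was -0.83 ± 0.26 (0.0372). For Junb, only MHb minus MVe passed (-0.69 ± 0.23, 0.0473). Fosl2 was higher in LHb than in MVe by 0.89 ± 0.24 (0.0304), and no pair of regions passed for Fosl1.

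Over all regions at once, a moderated F test on the control arrays was passed by 4 of the 7 genes (Fos, Fosb, Jun and Jund), against 35.3% of all genes. On all 16 arrays it was also passed by 4 (Fos, Jun, Junb and Jund), against 54.1%, so the share of AP-1 genes that differ by region was close to that of genes in general. The control level and the sevoflurane difference ran in opposite directions for only part of the genes. Fos, Fosb and Jund had their highest O2 level and their lowest difference in LHb, and Jun had both in Sol. Junb had its highest O2 level (5.87) and its largest difference (3.02) in MVe, and Fosl1 and Fosl2 did not follow the first pattern either. After propofol, Fos was 1.84 higher in LHb, where its Intralipos level (10.09) was also highest. A difference and its control level use the same control array, so no relation between them was tested.

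Other basic leucine zipper genes, whose proteins can pair or compete with AP-1, had medians near 0. Of 27 measured of 32 listed, 16 were higher and 11 lower after sevoflurane (median 0.09), and 9 higher and 18 lower after propofol (median -0.12), with 0 past the limma test and 1 at an unadjusted p under 0.05 in each comparison. Atf3, a stress-induced member of the family, was 0.60 ± 0.21 higher after sevoflurane (adjusted p = 0.975) and differed by -0.33 ± 0.21 after propofol (0.817). Nfil3 and Atf1 were 0.44 ± 0.24 and 0.36 ± 0.18 higher after sevoflurane, and Nrl and Bach2 differed by -0.33 ± 0.14 and -0.31 ± 0.22 after propofol.

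The kinases and factors that act upstream of AP-1 were split in direction as well. Among 23 measured of 29, 13 were higher and 10 lower after sevoflurane (median 0.07), and 12 higher and 11 lower after propofol (median 0.04), with 0 past the test; 1 and 0 had an unadjusted p under 0.05. Srf, the serum response factor that binds the CArG box, was 0.77 ± 0.28 higher after sevoflurane in 4 of 4 regions (limma adjusted p = 0.975) and differed by -0.36 ± 0.28 after propofol (0.864). Elk3 and Map3k1 stood 0.41 ± 0.23 and 0.33 ± 0.17 above O2. Mapk7 and Rps6ka2 differed by -0.34 ± 0.21 and 0.34 ± 0.18 after propofol.

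Genes known as AP-1 targets were also split in direction. Of 25 measured of 29, 13 were higher and 12 lower after sevoflurane (median 0.01), and 15 higher and 10 lower after propofol (median 0.03), with 0 past the test. At an unadjusted p under 0.05 there were 4 after sevoflurane (2 higher, 2 lower) and 3 after propofol (2 higher, 1 lower). The chemokine gene Ccl2 was 1.30 ± 0.36 higher after sevoflurane (limma adjusted p = 0.776), the metallothionein gene Mt2A was 0.54 ± 0.25 higher (0.982), and the neurotrophin gene Bdnf differed by -0.54 ± 0.20, lower in 4 of 4 regions (0.975). After propofol, the growth factor gene Hbegf (0.89 ± 0.24, 0.623) and the enkephalin precursor gene Penk (0.74 ± 0.23, 0.64) were higher in 4 of 4 regions, and the neuropeptide gene Npy differed by -0.51 ± 0.24 (0.721).

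Early response transcription factor genes outside AP-1 were mostly above their controls in the fits over the 4 regions. Over all genes, 52.8% were above 0 after sevoflurane and 52.3% after propofol. Of 14 measured of 15, 11 were higher and 3 lower after sevoflurane (median 0.31), with 0 past the test and 6 at an unadjusted p under 0.05 (5 higher, 1 lower). After propofol 10 were higher and 4 lower (median 0.14), with 0 past the test and 2 at an unadjusted p under 0.05. In single regions, 8 (LHb), 9 (MHb), 11 (Sol) and 10 (MVe) of the 14 were above O2 after sevoflurane. The counts above Intralipos after propofol were 8, 9, 7 and 9 in the same regions. The zinc finger gene Egr1 had 3.40 ± 0.64 after sevoflurane (limma adjusted p = 0.28) and 1.90 ± 0.64 after propofol (0.64). The nuclear receptor gene Nr4a1 had 2.69 ± 0.64 (0.655) and 1.15 ± 0.64 (0.773), and the neuronal activity gene Npas4 had 1.33 ± 0.40 (0.852) and 0.79 ± 0.40 (0.744), in the same order.

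Across the 8 differences between an anesthetic and its control in 1 region, the AP-1 genes varied together to different degrees. Pearson's r was 0.83 between Fos and Junb, 0.80 between Fosb and Junb, 0.78 between Fos and Fosb and 0.77 between Fos and Jun. It was 0.58 between Jun and Junb and 0.00 between Fosl2 and Jun. Both genes of a pair come from the same arrays, and each region contributes a point for both anesthetics, so these values are descriptions without a test. Among 8856 other genes whose highest array reached the median gene value of 6.86, those most like Fos were Ciao2a (0.972), Mtpn (0.966), Nr4a1 (0.957), Nav2 (0.941) and Asb1 (0.938). Of these, Nr4a1 alone had differences of the size of Fos, from -0.26 to 5.23, while the other 4 stayed between -0.49 and 0.43. Those most like Junb were Ccdc126 (0.951), Pim3 (0.945), Spns1 (0.940), Aida (0.936) and Nr4a3 (0.934), with Nr4a3 reaching 2.07 and Pim3 0.95 in MVe after sevoflurane.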

How the data were processed

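The 16 arrays cover 4 treatments in 4 regions, and groups were taken from the labels. Per the labels' protocols, total RNA (100 ng) went into biotin labelling. The authors deposited 1 log2 signal per probe set and array. The submitters' processing notes name Affymetrix Expression Console 1.3.0. How probes were summarized, and the genome build, is not given in the sources used here. That the scale is log2 was inferred from the range of the values (2.47 to 19.93).

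Of 24834 probe sets, 1646 were controls. Of the rest, 15049 had 1 gene symbol in the platform annotation, 0 had several and 8139 had none here. Those without a symbol entered only the alternative with all probes. The brightest probe of each gene was kept (15037 genes), with no filter and no further normalization. Differences were tested with limma 3.58.1 (lmFit and eBayes, two-sided) in R 4.3.3, with treatment and region as terms, or with treatment within division and region (6 residual degrees of freedom). P-values were adjusted over 15037 genes with a threshold of 0.05. Control-array region fits had 3 residual degrees of freedom. The number of arrays limits the precision. The fits were first tested on simulated data. Tables and figures used Python 3.11.15, numpy 2.4.6, pandas 2.3.3 and matplotlib 3.10.9.

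The 7 genes and the lists were chosen with earlier results of these data known. Named were the 7 members, the 3 largest absolute differences per context list and comparison, and the 5 genes most like Fos and Junb. Markers are given as list counts. Alternatives covered normalization, dim genes, unnamed probes, variance model, array subsets and single arrays left out.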

Additional observations from a re-analysis of the deposited data

Results flagged for a closer look

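Of 42 groups of 4 values tested for a value far from the other 3, 3 stood apart by Dixon's test, where chance alone gives about 5% of groups. The Fos signal on the O2 array of LHb, 10.13, lay far above the other 3 O2 arrays (6.63 to 7.16). The Fosb difference in MHb after propofol was -0.99, where the other 3 regions had 0.61 to 0.73. The Fosl2 signal on the propofol array of MHb, 3.61, lay below the other 3 propofol arrays (3.85 to 3.89), and below the medians of the negative controls on the propofol and Intralipos arrays (4.57 to 4.80).

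A pair of genes had propofol differences of opposite sign in the habenula and the hindbrain. Fosl1 differed by -0.25 in LHb and -0.22 in MHb, and by 0.24 in Sol and 0.06 in MVe, and the fitted difference of the effects was -0.39 (limma adjusted p = 0.97). Fosl2 differed by -0.63 in LHb and -0.13 in MHb, and by 0.25 in Sol and 0.27 in MVe, with a fitted difference of -0.64 (limma adjusted p = 0.918). Neither passed the test of the difference, and the share of all genes with such signs was not counted. On the propofol and Intralipos arrays, Fosl1 lay above only 37.4% to 49.9% of the negative controls and Fosl2 above 17.7% to 42.0%.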

How the results depend on the processing

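Quantile normalization, median centring, a region term within each array set, the 8 arrays of a comparison alone and the use of all probes changed no call and no direction of the 7 genes in the fits over the 4 regions. Leaving out single arrays moved the number of AP-1 genes past the sevoflurane test between 0 and 2 and of all genes between 0 and 8, where the 8 came without the sevoflurane array of LHb. Trended and robust variance gave 1 AP-1 gene and 2 genes in all. For propofol, 0 to 5 genes passed without single arrays and 1 in the 8 arrays alone. For the difference of both effects, 0 to 4 passed without single arrays, 1 with region within array set, 4 with trended and robust variance and 1 with all probes. Within the hindbrain, 0 to 5 genes and 0 to 1 AP-1 genes passed without single arrays, and 0 and 0 with dim genes left out, which removes Junb itself. Within the habenula, 0 to 1 genes passed without single arrays and 1 with trended and robust variance. For habenula minus hindbrain after sevoflurane it was 0 to 1. The region test was passed by 5304 genes on the control arrays alone, against 8139. Of 28 differences of AP-1 genes, 6 were at least 4-fold higher after sevoflurane (0.0466% of all genes over the regions) and 1 after propofol (0.0133%). At 1.5-fold, 16 were higher after sevoflurane (6.4%) and 0 lower, and 10 were higher (6.97%) and 2 lower (6.37%) after propofol.

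The sign of the small differences depended on single arrays. Without single arrays, the propofol difference ran from -0.20 to 0.07 for Fosl1, -0.23 to 0.08 for Fosl2 and -0.04 to 0.12 for Jund, and the sevoflurane difference of Fosl1 from -0.06 to 0.38. The sevoflurane minus propofol effect ran from -0.02 to 0.42 for Fosl1, -0.12 to 0.67 for Jun and -0.04 to 0.25 for Jund. Habenula minus hindbrain after sevoflurane ran from -1.41 to 0.10 for Fosb and -1.68 to 0.37 for Jun. After propofol it ran from -1.53 to 1.29 for Fos, -1.73 to 0.04 for Fosb, -0.21 to 1.33 for Jun, -1.08 to 0.39 for Junb and -0.34 to 0.16 for Jund. The sevoflurane difference in the habenula ran from -0.53 to 3.28 for Fos, -0.03 to 1.48 for Fosb, -0.25 to 0.06 for Fosl1 and -0.37 to 0.09 for Jund. In the hindbrain that of Fosl1 ran from -0.09 to 1.05. The cause was not tested.

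With 1 array per region and treatment, no region has a replicate of its own, and the labels do not tie regions to rats. Fosl1 and Fosl2 on all arrays, and Junb and Fosb on the O2 and Intralipos arrays, lay within the range of the negative controls. So did Jun on the O2 arrays of MHb and MVe, Junb on the sevoflurane arrays of LHb and MHb, and Fosb on the sevoflurane arrays. Fos on the control arrays of MHb, Sol and MVe lay above 76.3% to 91.0% of them. These levels limit the precision of the differences and folds of these genes, those of Junb and Fos included.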

Other observations

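Some genes of the partner, upstream, target and choroid plexus lists differed most within their list in single regions. These are differences of 1 array from 1 array without a test, and the genes were chosen after their values were seen. After sevoflurane relative to O2, the chemokine gene Ccl2 was 2.55 higher in MVe and 1.89 in MHb, Srf was 1.75 higher in MVe, and Atf3 was 1.21 higher in MVe. After propofol relative to Intralipos, Srf differed by -1.32 in MVe and by 0.83 in Sol, so its sign in MVe was opposite after the 2 anesthetics, a difference that was not tested. In Sol after propofol, the dynorphin precursor gene Pdyn was 1.66 higher and the choroid plexus gene Ttr 6.10 higher, and in MVe Hbegf was 1.49 and Nfil3 1.30 higher.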
